A study of Mus musculus with 9 samples.

Results

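The collagen gene family was examined in lungs of mouse embryos at E18.5, near the end of gestation, in which the DNA methyltransferase gene Dnmt1 had been deleted conditionally. Members were the genes whose name had the form Col, a number, a and a number; 44 of the 27207 genes in the table met it. Whole lungs were sequenced in 3 groups of 3 libraries. Strong CKO (conditional knockout) lungs were small and had blood spread through the parenchyma. Weak CKO lungs were small only. Both CKO groups carried Tbx4-rtTA, Tet-O-Cre and Dnmt1-D/D, and the remaining group was wild type. Tbx4-rtTA with Tet-O-Cre is a doxycycline-dependent driver known for lung mesenchyme, so epithelium and blood of the same lungs need not carry the deletion. The sources used here do not state the doxycycline schedule, the strain or any transgene of the wild type embryos. They also do not say which lungs shared a litter, and each p-value reflects only how much these samples varied.

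Collagens are secreted or membrane-bound proteins whose chains wind in threes into a triple helix. Fibrillar collagens (types I, III and V) form the tensile fibres of the interstitium, airways and vessels. Type IV collagen builds the network of basement membranes under epithelium and endothelium, type VI assembles into beaded filaments between cells and fibres, and types II, IX, X and XI are best known from cartilage, which in the lung lies around the large airways. Fibroblasts and smooth muscle are main sources of the fibrillar chains, while the cells resting on a basement membrane share in making type IV. Procollagen chains are hydroxylated and folded in the endoplasmic reticulum, trimmed outside the cell and cross-linked by lysyl oxidases.

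Total counts were 25607595 to 33156732 per library. Levels are given as RPKM, the TMM-scaled CPM divided by the length in kb of the coding transcript, so that genes can be set side by side; this is not the deposited RPKM. Values of 3 lungs are given in the order of the libraries MUT_S_265_5, MUT_S_268_4 and MUT_S_860_3 for strong CKO, MUT_W_265_2, MUT_W_268_3 and MUT_W_549_3 for weak CKO, and WT_265_1, WT_268_1 and WT_549_2 for wild type. Log2 changes are given with their standard error and an adjusted p from edgeR's quasi-likelihood test over all 19374 genes tested, and a gene is called at an adjusted p under 0.05. Dnmt1 itself stood at 11.6, 14.7 and 12.1 RPKM in strong CKO, 11.01, 12.9 and 15.02 in weak CKO and 14.7, 22.5 and 18.1 in wild type lungs. Its log2 change was −0.53 ± 0.17 (adjusted p = 0.0433) in strong CKO and −0.51 ± 0.17 (adjusted p = 0.0727) in weak CKO lungs; which exons are removed is not stated, and reads outside them would still be counted. The weak CKO library MUT_W_268_3 held transcripts of both Xist (956 CPM) and Ddx3y (166 CPM), whereas each of the other 8 libraries had one of these at under 5 CPM. WT_265_1 and WT_549_2 had the male pattern, with Xist at 2.51 and 4.51 CPM and Ddx3y at 165 and 159 CPM. WT_268_1, MUT_W_265_2, MUT_W_549_3 and all strong CKO libraries had the female pattern, with Xist at 2080 to 2570 CPM and Ddx3y at most 0.0377 CPM. Comparisons of CKO with wild type lungs thus also differ in sex, whose part in the changes was not tested. Surfactant gene Sftpc and lung transcription factor gene Nkx2-1 were abundant in every library, at mean levels of 7887, 9653 and 10880 RPKM and 108.8, 104.3 and 124.9 RPKM in strong CKO, weak CKO and wild type lungs.

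In whole lungs the collagen genes moved in both directions. The fibrillar genes Col1a2, Col3a1, Col5a1 and Col5a3, the fibril-associated Col16a1, the short-chain Col8a1 and Col8a2, and Col7a1, Col11a1 and Col26a1 were higher in both CKO groups than in wild type lungs. Col6a4, Col25a1, Col24a1, Col17a1, Col13a1 and Col14a1 were lower in both. The network chains Col4a1 to Col4a6 were called in neither comparison in the edgeR fit as reported. DESeq2 called Col4a1, Col4a3, Col4a4 and Col4a5 lower in strong CKO lungs. With library number as a block, edgeR called Col4a2, Col4a3, Col4a4 and Col4a5 lower there. MUT_S_860_3 is the only library numbered 860, so the block absorbs it. Those calls rest on MUT_S_265_5 and MUT_S_268_4 among the strong CKO libraries. No collagen gene was called between strong and weak CKO lungs. A lower level in whole lung can stem from fewer cells of a type or from less RNA per cell, and these cannot be told apart here.

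Of the 44 genes, 43 passed the filter on low counts; Col19a1, with 0 to 2 counts per library, was not tested. In strong CKO lungs 11 of the 43 were called higher (25.6%, against 14.6% of all genes tested) and 8 lower (18.6%, against 11% of all genes). In weak CKO lungs 11 were called higher (25.6%, against 9.09% of all genes) and 6 lower (14.0%, against 5.38%). The tested collagen genes had more counts than most genes, with a median over genes of 2226 counts per library, against 432.6 over all genes tested, which bears on how many can be called. All 3 strong CKO libraries lay above all 3 wild type libraries for 13 members (30.2%, against 22.7% of all genes) and below them for 15 (34.9%, against 19%). For weak CKO these were 13 members above (30.2%, against 17.7%) and 9 below (20.9%, against 13.8%). The median log2 change over the 43 genes was −0.145 in strong CKO and −0.088 in weak CKO lungs, beside medians of −0.001 and −0.008 over all genes. Both comparisons use the same wild type libraries. In all, 10 genes were called higher in both, 6 lower in both, Col5a2 higher in weak CKO alone, Col11a2 higher and Col6a2 and Col6a3 lower in strong CKO alone, and 24, the untested Col19a1 among them, in neither. A call in one CKO group alone does not show that the CKO groups differ, and none of these genes was called between them.

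**Figure D1:**
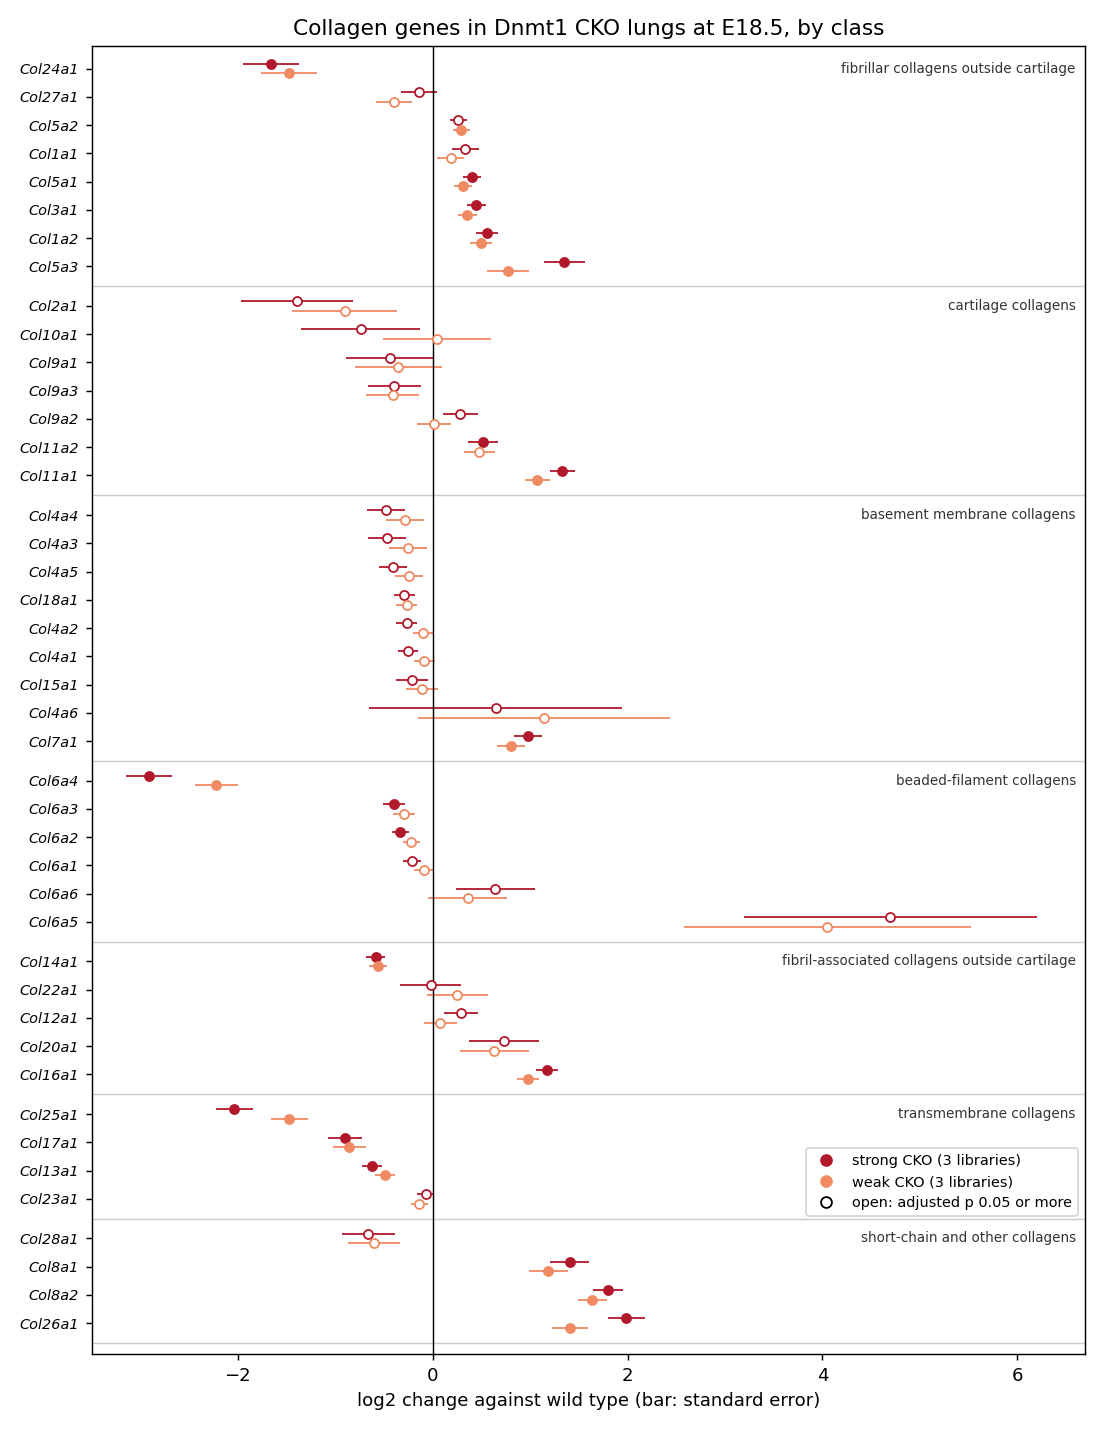
Log2 change against wild type of the 43 tested collagen genes in strong CKO (dark) and weak CKO (light) lungs, with bars for the standard error and filled points for an adjusted p under 0.05, grouped by class. The fibrillar and short-chain classes hold most of the higher genes, up to 1.99 for Col26a1 in strong CKO lungs, transmembrane and beaded-filament classes hold 6 of the 8 lower genes in strong CKO lungs, and Col6a5 and Col4a6 have the widest bars.

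The 7 most abundant genes, Col4a1, Col3a1, Col1a2, Col6a2, Col6a1, Col4a2 and Col1a1, made up 79.7 to 81.3% of the summed collagen level in strong CKO, 80.0 to 81.3% in weak CKO and 77.2 to 78.8% in wild type lungs. Another 14 genes had a mean level between 10 and 100 RPKM, 13 between 1 and 10, and 10 were at or under 1 RPKM. The summed level of all 44 genes was 2887, 2707 and 2944 RPKM in strong CKO lungs, 3015, 2892 and 2850 RPKM in weak CKO lungs and 3005, 3012 and 2647 RPKM in wild type lungs. These totals overlapped among the 3 groups. What differed was the split between classes. Fibrillar genes outside cartilage took 42.1 ± 2.12% of the summed level in strong CKO, 38.6 ± 1.21% in weak CKO and 30.8 ± 2.39% in wild type lungs (SD, n = 3 each), and every CKO library, from 37.4%, was above every wild type library, up to 32.9%. Basement membrane genes took 29.6 ± 0.727%, 32.3 ± 2.02% and 35.4 ± 1.99% in the same order of groups. Strong CKO (at most 30.2%) and wild type (at least 34.2%) did not overlap in this share, whereas weak CKO libraries reached 34.6%. Beaded-filament genes took 22.04 ± 1.30%, 23.0 ± 0.891% and 26.0 ± 0.930%, and transmembrane genes 2.57 ± 0.303%, 2.83 ± 0.357% and 4.79 ± 0.292%. Cartilage genes made up 0.305%, 0.259% and 0.232% on average. With 3 lungs a group the smallest exact permutation p is 0.1, and these shares are given without a test.

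**Figure D2:**
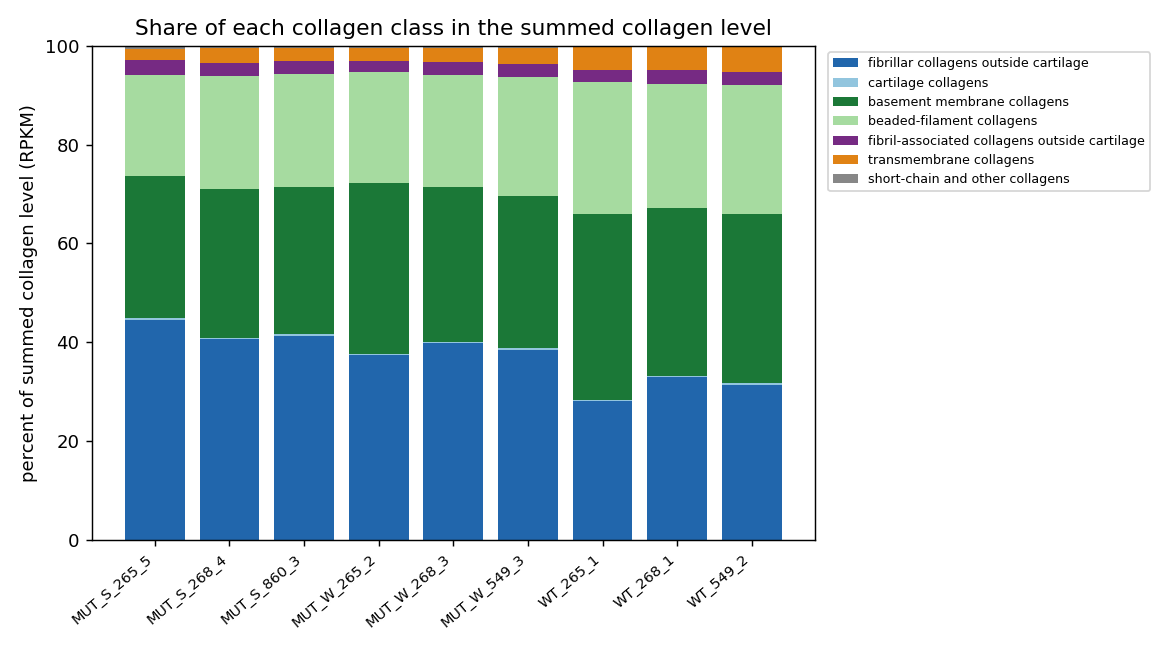
Percent of the summed collagen level (RPKM) taken by each of the 7 classes in each library, with strong CKO libraries (MUT_S) left, weak CKO (MUT_W) in the middle and wild type (WT) right. The fibrillar segment spans 40.6 to 44.6% in strong CKO, 37.4 to 39.8% in weak CKO and 28.2 to 32.9% in wild type libraries.

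Among the 8 fibrillar genes outside cartilage, 4 were called higher and 1 lower in strong CKO lungs (median log2 change 0.37) and 5 higher and 1 lower in weak CKO lungs (median 0.30). Counts for this class and the classes that follow stand beside the shares of all genes tested. These were 14.6% higher and 11% lower in strong CKO lungs, and 9.09% higher and 5.38% lower in weak CKO lungs. Col3a1, the single chain of type III collagen found in extensible tissue, had 483, 419.6 and 462 RPKM in strong CKO, 436, 455 and 386 in weak CKO and 344, 342 and 314 in wild type lungs. Every CKO library exceeded every wild type library, and the log2 change was 0.45 ± 0.10 (adjusted p = 0.0079) in strong CKO and 0.35 ± 0.10 (adjusted p = 0.0377) in weak CKO lungs. Col1a2, the second chain of the type I heterotrimer, had 384, 324 and 355 RPKM in strong CKO, 348, 329.6 and 336 in weak CKO and 221, 281 and 219 in wild type lungs. CKO and wild type libraries did not overlap, although WT_268_1 was well above the other wild type libraries. Its log2 change was 0.56 ± 0.11 (adjusted p = 0.00523) in strong CKO and 0.49 ± 0.11 (adjusted p = 0.0171) in weak CKO lungs. Col1a1, the partner of Col1a2, had 282, 230.0 and 264 RPKM in strong CKO, 220.0, 231 and 248 in weak CKO and 172, 250.1 and 193 in wild type lungs. Here WT_268_1 lay within the CKO range, and neither change was called, at 0.33 ± 0.14 (adjusted p = 0.0985) in strong CKO and 0.18 ± 0.14 (adjusted p = 0.424) in weak CKO lungs. Without WT_268_1 Col1a1 was called in strong CKO lungs (log2 change 0.50, adjusted p = 0.0132). That library was the only wild type one with the female pattern of Xist and Ddx3y, as in every strong CKO library. Leaving it out therefore sets female strong CKO against male wild type lungs, and the part of sex was not tested. The ratio of Col1a1 to Col1a2 was 0.735, 0.710 and 0.745 in strong CKO lungs, 0.631, 0.700 and 0.739 in weak CKO lungs and 0.781, 0.892 and 0.880 in wild type lungs. Every CKO lung thus had less Col1a1 per Col1a2 than any wild type lung.

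Type V collagen sits inside type I fibrils and limits their width. Col5a1 stood at 46.2, 41.8 and 50.1 RPKM in strong CKO, 41.7, 43.8 and 43.7 in weak CKO and 33.2, 39.2 and 31.8 in wild type lungs, with a log2 change of 0.41 ± 0.09 (adjusted p = 0.0097) in strong CKO and 0.31 ± 0.09 (adjusted p = 0.0494) in weak CKO lungs. Col5a2 stood at 78.5, 72.7 and 69.97 RPKM in strong CKO, 73.4, 82.8 and 70.04 in weak CKO and 65.3, 62.7 and 56.5 in wild type lungs, and its log2 change was 0.26 ± 0.09 (adjusted p = 0.0504) in strong CKO and 0.29 ± 0.09 (adjusted p = 0.0485) in weak CKO lungs. For both genes all CKO libraries were above all wild type libraries. Col5a3 was far rarer, at 1.06, 0.694 and 0.901 RPKM in strong CKO, 0.618, 0.614 and 0.548 in weak CKO and 0.291, 0.438 and 0.310 in wild type lungs. No CKO library fell in the wild type range, and the strong CKO libraries were also above the weak ones. Its log2 change was 1.35 ± 0.21 (adjusted p = 0.00144) in strong CKO and 0.77 ± 0.21 (adjusted p = 0.036) in weak CKO lungs. Leaving out 1 library ended the weak CKO calls for 5 different libraries in Col3a1 (adjusted p 0.0558 to 0.142), 3 in Col1a2 (0.0543 to 0.0612), 7 in Col5a1 (0.0533 to 0.147), 7 in Col5a2 (0.0518 to 0.183) and 5 in Col5a3 (0.0541 to 0.113); MUT_W_265_2, MUT_W_268_3 and WT_549_2 were each among them for all 5 genes. In strong CKO lungs the calls of Col1a2, Col3a1, Col5a1 and Col5a3 held without any single library. Without MUT_S_265_5, MUT_W_265_2 and WT_265_1 together, a setting chosen after the values were seen, the strong CKO calls of Col1a2, Col3a1 and Col5a1 were lost as well (adjusted p = 0.063, 0.0542 and 0.085). With the summed erythroid level as a covariate Col3a1 and Col5a1 were not called in strong CKO lungs either (adjusted p = 0.0685 and 0.0653). Col5a2 was called in strong CKO lungs without WT_265_1, MUT_W_268_3 or MUT_W_549_3 (0.0399 to 0.0494) and by DESeq2 (0.0385).

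The fibrillar genes did not move together. Col24a1, a fibrillar chain known from developing bone and cornea, stood at 0.464, 0.704 and 0.917 RPKM in strong CKO, 0.563, 0.823 and 0.983 in weak CKO and 1.86, 1.87 and 2.86 in wild type lungs. All CKO libraries lay below all wild type libraries, and its log2 change was −1.66 ± 0.29 (adjusted p = 0.003) in strong CKO and −1.47 ± 0.28 (adjusted p = 0.0089) in weak CKO lungs. Col27a1 was placed in the fibrillar class outside cartilage although it is known from cartilage. It ranged over 9.48 to 11.5 RPKM in strong CKO, 7.23 to 11.1 in weak CKO and 8.92 to 13.3 in wild type lungs. Its groups overlapped and it was not called (log2 change −0.14 ± 0.19, adjusted p = 0.606, in strong CKO and −0.39 ± 0.19, adjusted p = 0.202, in weak CKO lungs).

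**Figure D3:**
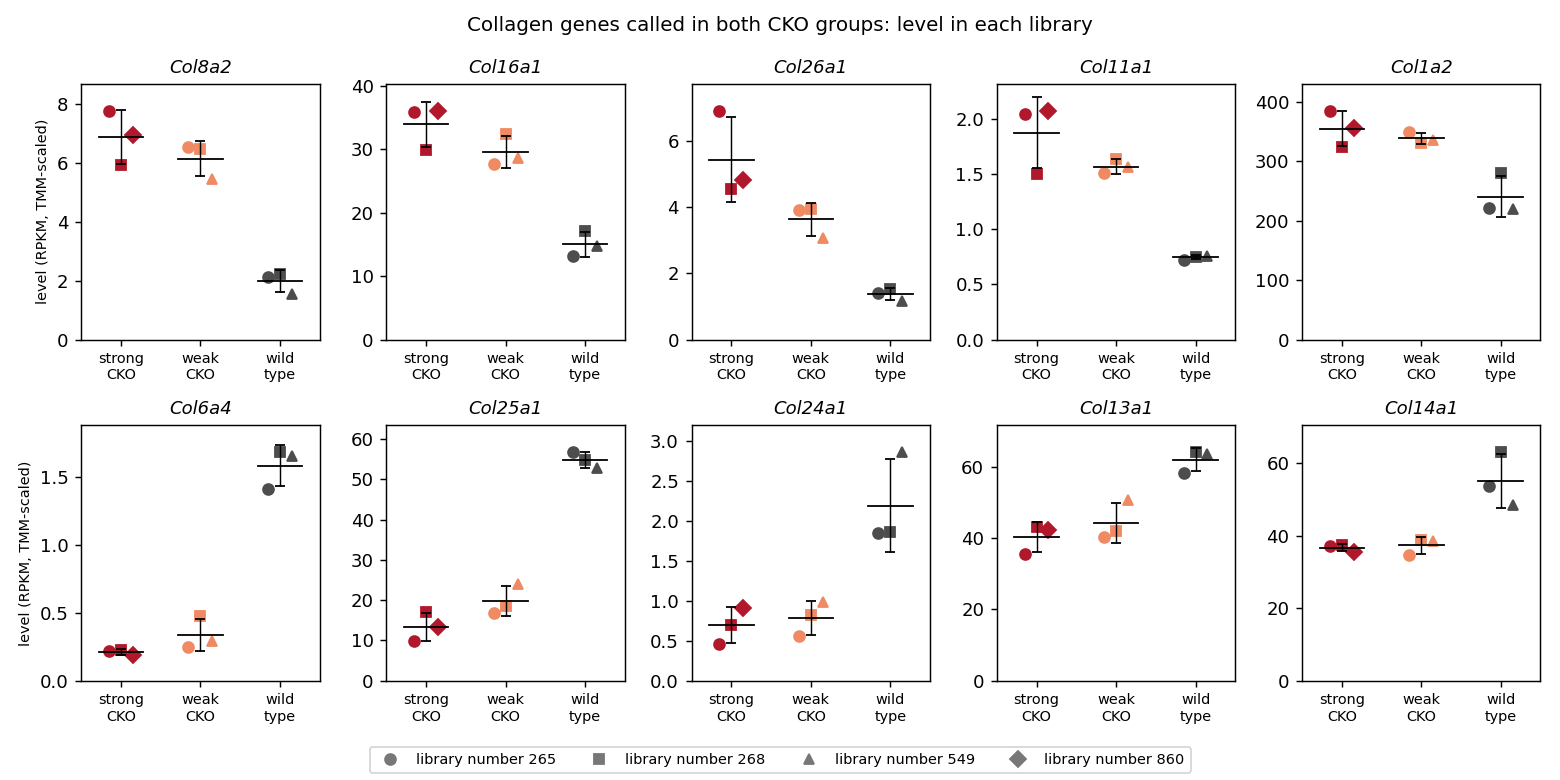
Level (RPKM, TMM-scaled, linear axes from 0) of 10 collagen genes called in both CKO groups, with 1 point per library shaped by library number and lines for the mean and SD of 3 libraries. In the upper row every CKO point lies above the wild type points, and in the lower row every CKO point lies below them.

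Among the 7 cartilage collagen genes, 2 were called higher in strong CKO lungs and 1 in weak CKO lungs, and none lower; their median log2 changes were −0.39 and 0.01. The called genes were the type XI chains. These thin-fibril chains also occur outside cartilage and can pair with type V chains. Col11a1 stood at 2.05, 1.503 and 2.07 RPKM in strong CKO, 1.51, 1.63 and 1.56 in weak CKO and 0.724, 0.750 and 0.759 in wild type lungs. Its wild type values were close together and well below all 6 CKO values, with a log2 change of 1.33 ± 0.13 (adjusted p = 9.86e-05) in strong CKO and 1.07 ± 0.13 (adjusted p = 0.000574) in weak CKO lungs. Col11a2 stood at 0.852, 0.780 and 1.06 RPKM in strong CKO, 0.915, 0.802 and 0.912 in weak CKO and 0.615, 0.599 and 0.669 in wild type lungs, again with no overlap, and changed by 0.52 ± 0.16 (adjusted p = 0.0348) in strong CKO and 0.48 ± 0.16 (adjusted p = 0.0671) in weak CKO lungs. The strong CKO call of Col11a2 was lost without any 1 of 6 libraries (all 3 wild type libraries, MUT_S_265_5, MUT_S_860_3 and MUT_W_265_2; adjusted p 0.0505 to 0.131), and when summed erythroid level was a covariate (adjusted p = 0.318).

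The defining collagen of cartilage, Col2a1, was at very low levels, with 0.0148, 0.0559 and 0.0721 RPKM in strong CKO, 0.0334, 0.0409 and 0.129 in weak CKO and 0.109, 0.146 and 0.128 in wild type lungs. These levels rest on 2, 8 and 11 counts in strong CKO, 5, 7 and 21 in weak CKO and 16, 23 and 21 in wild type lungs, and strong CKO libraries were all below wild type. Neither change was called (−1.39 ± 0.57, adjusted p = 0.0995, in strong CKO and −0.90 ± 0.54, adjusted p = 0.304, in weak CKO lungs), but the gene was called lower in strong CKO lungs without MUT_W_549_3 (adjusted p = 0.0496). Col9a1, a type IX chain that decorates type II fibrils, was at 0.102 to 0.218 RPKM in strong CKO, 0.151 to 0.262 in weak CKO and 0.109 to 0.354 in wild type lungs. Its partner Col9a3 was at 0.316 to 0.395 RPKM in strong CKO, 0.291 to 0.453 in weak CKO and 0.344 to 0.603 in wild type lungs. The other chain, Col9a2, was more abundant, at 4.77 to 5.73 RPKM in strong CKO, 3.20 to 4.99 in weak CKO and 3.56 to 4.89 in wild type lungs. Col10a1, the marker of hypertrophic chondrocytes, was at 0.0107 to 0.120 RPKM in strong CKO, 0.0858 to 0.185 in weak CKO and 0.0895 to 0.155 in wild type lungs, and in 1 strong CKO library on 1 count. The groups of all 4 genes overlapped and none was called. Col9a3 and Col10a1 overlap Tcfl5 and Nt5dc1 on the opposite strand, and the sources used here do not state whether counting used strand, so part of these low counts may belong to the neighbours.

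Other cartilage markers moved unevenly. Of 10 cartilage marker genes 9 were tested, and in each CKO group 2 were called higher (Acan, which encodes aggrecan, and Chad) and 2 lower (the chondrogenic factor genes Sox5 and Sox9). Of all genes tested, 14.6% were called higher and 11% lower in strong CKO lungs, and 9.09% and 5.38% in weak CKO lungs. Acan stood at 0.237 ± 0.0631 RPKM in strong CKO, 0.171 ± 0.0732 RPKM in weak CKO and 0.0329 ± 0.0102 RPKM in wild type lungs (SD, n = 3 each), and the cartilage matrix gene Matn1 was too low to test. The summed level of the 10 markers was 44.0 to 49.5 RPKM in strong CKO, 40.6 to 53.5 RPKM in weak CKO and 38.4 to 41.4 RPKM in wild type lungs. Chad, on average the largest term in each group, stood at 25.0 ± 4.17, 23.3 ± 8.20 and 11.8 ± 3.40 RPKM in the same order. The next largest, Hapln1, went the other way, at 7.76 ± 0.841, 9.16 ± 3.15 and 11.2 ± 3.78 RPKM, and was not called. The sum thus does not stand for the markers as a set. Whether cartilage content bears on Col11a1 and Col11a2 was not tested.

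Of the 9 basement membrane genes only Col7a1 was called, in both CKO groups, and the median log2 change was −0.27 in strong CKO and −0.11 in weak CKO lungs. Col4a1 and Col4a2, the chains of the network found in all basement membranes, were among the most abundant collagen genes. Col4a1 had 436, 429.5 and 475 RPKM in strong CKO, 544, 488 and 472 in weak CKO and 588, 532 and 478 in wild type lungs. Its strong CKO libraries were all below the wild type libraries, narrowly in the case of MUT_S_860_3, and the weak CKO libraries overlapped them. The log2 change was −0.25 ± 0.11 (adjusted p = 0.111) in strong CKO and −0.09 ± 0.11 (adjusted p = 0.646) in weak CKO lungs. Col4a2 had 249, 238 and 266 RPKM in strong CKO, 314, 271 and 262 in weak CKO and 336, 299 and 270.2 in wild type lungs, again with all strong CKO libraries below wild type, and a log2 change of −0.27 ± 0.11 (adjusted p = 0.0992) in strong CKO and −0.10 ± 0.11 (adjusted p = 0.617) in weak CKO lungs. DESeq2 called Col4a1 lower in strong CKO lungs (log2 change −0.26, adjusted p = 0.0444) but not Col4a2. Conversely, edgeR with library number as a block, where MUT_S_860_3 adds nothing to the comparison, called Col4a2 lower in strong CKO lungs but not Col4a1. Their ratio, Col4a1 over Col4a2, was 1.76, 1.81 and 1.79 in strong CKO lungs, 1.73, 1.801 and 1.801 in weak CKO lungs and 1.75, 1.78 and 1.77 in wild type lungs, so it varied by less across lungs than either gene's own level.

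Col4a1 and Col4a2 lie head to head on chromosome 8, with starts 21 bases apart and windows from 250 bases before to 50 bases after the start that share 78 bases. These windows are shown because this pair kept its ratio in every lung. They come from RefSeq on GRCm38.p6, 5′ to 3′ in the direction of each gene (chr8:11312777-11313076, minus strand, for Col4a1, and chr8:11312555-11312854, plus strand, for Col4a2), with every CG, the site at which Dnmt1 maintains methylation, in capitals.
Col4a1: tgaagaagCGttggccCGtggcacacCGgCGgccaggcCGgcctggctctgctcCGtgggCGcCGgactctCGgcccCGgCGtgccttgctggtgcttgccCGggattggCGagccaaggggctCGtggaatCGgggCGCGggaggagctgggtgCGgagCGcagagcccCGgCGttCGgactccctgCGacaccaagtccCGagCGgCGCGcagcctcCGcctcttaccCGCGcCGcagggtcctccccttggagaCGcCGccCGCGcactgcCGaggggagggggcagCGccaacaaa
Col4a2: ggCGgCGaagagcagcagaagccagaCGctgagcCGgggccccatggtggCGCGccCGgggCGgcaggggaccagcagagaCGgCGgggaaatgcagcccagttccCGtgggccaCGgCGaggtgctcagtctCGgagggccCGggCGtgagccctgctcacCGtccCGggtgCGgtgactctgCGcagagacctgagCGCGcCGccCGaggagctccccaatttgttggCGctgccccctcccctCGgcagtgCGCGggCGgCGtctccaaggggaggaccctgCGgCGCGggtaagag
The Col4a1 window holds 37 CG and the Col4a2 window 33, against a median of 7 over 32851 RefSeq windows of this length.

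The chains of the kidney, eye and lung alveolar network, Col4a3, Col4a4 and Col4a5, were lower in all 3 strong CKO libraries than in any wild type library, yet none reached the threshold in the edgeR fit as reported. Col4a3 had 26.1, 29.1 and 27.6 RPKM in strong CKO, 42.5, 28.3 and 25.3 in weak CKO and 46.2, 36.3 and 31.9 in wild type lungs (log2 change −0.47 ± 0.20, adjusted p = 0.114, in strong CKO and −0.25 ± 0.20, adjusted p = 0.447, in weak CKO lungs). Col4a4, which lies head to head with Col4a3 across a gap of 71 bases on chromosome 1, had 40.2, 38.4 and 33.9 RPKM in strong CKO, 55.5, 38.1 and 34.98 in weak CKO and 63.5, 52.02 and 41.1 in wild type lungs (log2 change −0.48 ± 0.19, adjusted p = 0.103, in strong CKO and −0.28 ± 0.19, adjusted p = 0.384, in weak CKO lungs). Col4a5, on the X chromosome, had 33.1, 33.5 and 31.1 RPKM in strong CKO, 43.2, 34.2 and 31.96 in weak CKO and 51.1, 44.1 and 34.3 in wild type lungs (log2 change −0.41 ± 0.15, adjusted p = 0.0704, in strong CKO and −0.24 ± 0.15, adjusted p = 0.318, in weak CKO lungs). In each gene MUT_W_265_2 was the highest weak CKO and WT_265_1 the highest wild type library, and weak CKO overlapped wild type. Col4a3 to Col4a4 stood at 0.650 to 0.813 in strong CKO, 0.723 to 0.764 in weak CKO and 0.698 to 0.777 in wild type lungs, and these ratios overlapped. Without MUT_W_265_2, which belongs to neither group of that comparison and enters only through the shared fit, all 3 genes were called lower in strong CKO lungs (adjusted p = 0.0251, 0.04 and 0.0437). DESeq2 on all libraries called them lower too (adjusted p = 0.0491, 0.0429 and 0.0338). With library number as a block, edgeR also called all 3 lower in strong CKO lungs, there without any part of MUT_S_860_3, the only library of its number. With only the groups compared in the fit, it called Col4a3 but not Col4a4 or Col4a5. Col4a5 was also called without WT_549_2 (log2 change −0.55, adjusted p = 0.0148).

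Col4a6, which pairs with Col4a5 in smooth muscle and some epithelial basement membranes, split the libraries within groups. It had 0.294, 3.17 and 2.19 RPKM in strong CKO, 0.302, 4.95 and 2.73 in weak CKO and 0.388, 2.90 and 0.328 in wild type lungs. The libraries MUT_S_265_5, MUT_W_265_2, WT_265_1 and WT_549_2 were low, and the other 5 were high, among them a wild type lung. That lung, WT_268_1, was the only wild type one with the female pattern of Xist and Ddx3y. MUT_S_265_5 and MUT_W_265_2 had the female pattern too and were low. Col4a6 is on the X chromosome, and the part of sex in this split was not tested. The log2 change of Col4a6 was 0.65 ± 1.30 (adjusted p = 0.755) in strong CKO and 1.14 ± 1.30 (adjusted p = 0.626) in weak CKO lungs, with standard errors larger than the changes themselves. Col4a6 lies head to head with Col4a5 across a gap of 1308 bases, and the ratio of Col4a6 to Col4a5 was 0.00891, 0.0946 and 0.0706 in strong CKO, 0.00699, 0.145 and 0.0854 in weak CKO and 0.00760, 0.0658 and 0.00956 in wild type lungs.

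Col7a1, which encodes the anchoring fibrils that tie basement membrane to the matrix under stratified epithelia, was the exception. It stood at 3.16, 2.68 and 2.59 RPKM in strong CKO, 2.16, 2.69 and 2.60 in weak CKO and 1.15, 1.67 and 1.45 in wild type lungs, with every CKO library above every wild type library and a log2 change of 0.98 ± 0.14 (adjusted p = 0.000973) in strong CKO and 0.80 ± 0.14 (adjusted p = 0.0048) in weak CKO lungs. Basal cell factor gene Trp63 was also higher (mean 0.444, 0.456 and 0.147 RPKM in strong CKO, weak CKO and wild type lungs; log2 change 1.59 ± 0.28, adjusted p = 0.00261, in strong CKO), while the basal keratin Krt5 was too low to test. The hemidesmosome collagen gene Col17a1 went the other way, with log2 changes of −0.90 ± 0.17 (adjusted p = 0.00423) in strong CKO and −0.85 ± 0.17 (adjusted p = 0.00972) in weak CKO lungs. Whether basal cells bear on Col7a1 was not tested. Col15a1 and Col18a1, proteoglycan collagens of vessel and epithelial basement membranes, were not called. Col15a1 was at 12.2 to 14.4 RPKM in strong CKO, 12.97 to 15.9 in weak CKO and 11.7 to 19.3 in wild type lungs, and Col18a1 at 29.6 to 29.8 RPKM in strong CKO, 26.6 to 34.6 in weak CKO and 33.1 to 41.7 in wild type lungs. Strong CKO libraries of Col18a1 were all below wild type (log2 change −0.29 ± 0.11, adjusted p = 0.0696), and those of Col15a1 overlapped it. Without WT_265_1, or without MUT_W_549_3, Col18a1 was called lower in strong CKO lungs (adjusted p = 0.0471 and 0.0399), and in weak CKO lungs without MUT_W_549_3 (adjusted p = 0.0365).

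**Figure D4:**
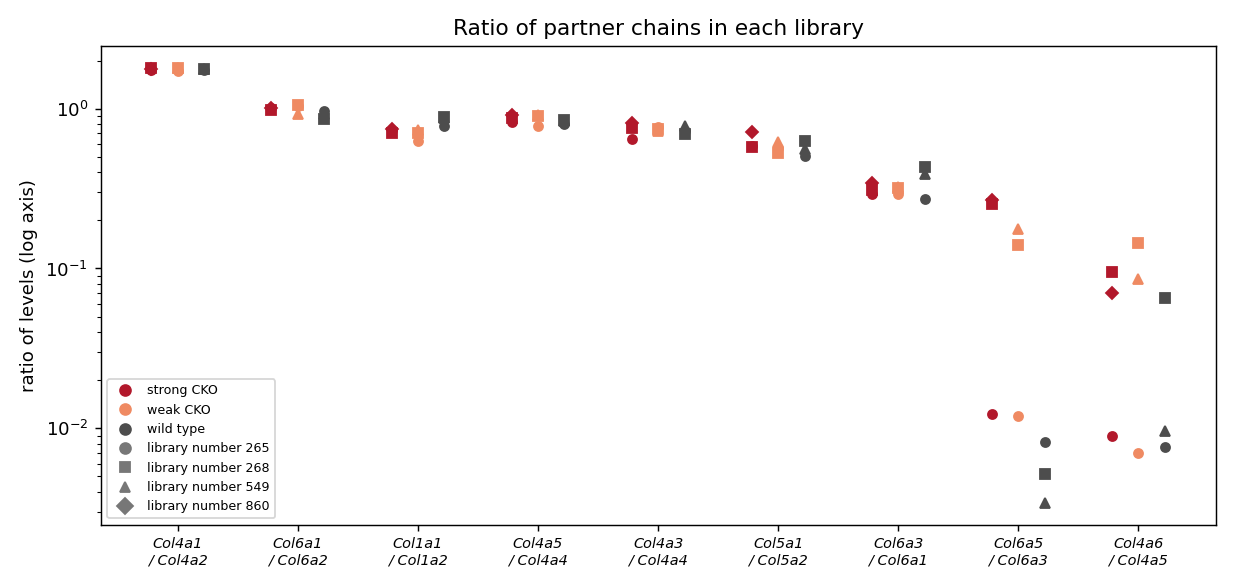
Ratio of levels of 9 pairs of partner chains in each library (log axis), with strong CKO, weak CKO and wild type from left to right within each pair and shapes for library numbers. Col4a1 to Col4a2 stays between 1.73 and 1.81 in all 9 libraries, Col1a1 to Col1a2 is lower in all CKO libraries than in any wild type one, and Col6a5 to Col6a3 and Col4a6 to Col4a5 spread over more than an order of magnitude.

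The 6 beaded-filament genes encode type VI chains, in which Col6a1 and Col6a2 join with either Col6a3 or one of Col6a4, Col6a5 and Col6a6. Of the 6, 3 were called lower in strong CKO lungs and 1 in weak CKO lungs, with none higher and medians of −0.273 and −0.155. Col6a1 had 259, 256 and 275 RPKM in strong CKO, 299, 282 and 278 in weak CKO and 347, 289 and 279.5 in wild type lungs, with no call (−0.21 ± 0.10, adjusted p = 0.129, in strong CKO and −0.09 ± 0.10, adjusted p = 0.576, in weak CKO lungs). Col6a2 had 256, 260.3 and 274 RPKM in strong CKO, 288, 268.4 and 299.7 in weak CKO and 359.9, 335 and 301 in wild type lungs, and its log2 change was −0.33 ± 0.09 (adjusted p = 0.0199) in strong CKO and −0.22 ± 0.09 (adjusted p = 0.135) in weak CKO lungs. Col6a3 had 76.3, 78.9 and 94.8 RPKM in strong CKO, 86.9, 90.4 and 90.1 in weak CKO and 94.8, 124 and 109 in wild type lungs, and its log2 change was −0.39 ± 0.11 (adjusted p = 0.0289) in strong CKO and −0.30 ± 0.11 (adjusted p = 0.115) in weak CKO lungs. All strong and weak CKO libraries of Col6a2 were below wild type, if narrowly, while the highest strong CKO value of Col6a3 was level with the lowest wild type value. The strong CKO call of Col6a2 was lost without MUT_S_265_5 or MUT_S_268_4 (adjusted p 0.06 to 0.0765), and that of Col6a3 without either of these or without WT_268_1 or WT_549_2 (0.0592 to 0.121). With the erythroid level as a covariate Col6a3 was not called (adjusted p = 0.148). Conversely, Col6a3 was called lower in weak CKO lungs without WT_265_1 (log2 change −0.39, adjusted p = 0.0381).

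Col6a4 fell in every CKO lung, to 0.220, 0.223 and 0.186 RPKM in strong CKO and 0.249, 0.473 and 0.289 in weak CKO lungs, against 1.41, 1.68 and 1.65 in wild type lungs. No CKO library came near the wild type range. Its log2 change was −2.91 ± 0.23 (adjusted p = 2.88e-05) in strong CKO and −2.22 ± 0.22 (adjusted p = 0.000151) in weak CKO lungs, and both calls held at each of 18 alternative settings. Col6a4 reads were few, 41 to 117 per CKO library against 297 to 391 per wild type library. Set against the wild type library of the same number, the change had the same sign, from −1.81 to −2.87.

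Col6a5, the neighbour of Col6a4, showed a split of another kind. It had 0.936, 19.98 and 25.4 RPKM in strong CKO, 1.03, 12.7 and 15.9 in weak CKO and 0.781, 0.643 and 0.372 in wild type lungs. MUT_S_265_5 and MUT_W_265_2 were near the wild type level, and the other 4 CKO libraries were at 12.7 RPKM or more. In counts these were 231, 5201 and 7072 in strong CKO lungs, 281, 3955 and 4712 in weak CKO lungs and 208, 185 and 111 in wild type lungs. All 6 CKO libraries were still above all 3 wild type libraries. Across all 9 libraries the log2 change was not called, at 4.70 ± 1.5 (adjusted p = 0.0667) in strong CKO and 4.05 ± 1.47 (adjusted p = 0.13) in weak CKO lungs. Without MUT_S_265_5, MUT_W_265_2 and WT_265_1, a setting chosen after these values were seen, it was 5.49 in strong CKO (adjusted p = 0.000789) and 4.82 in weak CKO lungs (adjusted p = 0.0015). DESeq2 called the gene in both comparisons with all libraries, and the strong CKO change was also called without MUT_S_265_5 (5.26, adjusted p = 0.0295) or MUT_W_265_2 (4.70, adjusted p = 0.0498). Set against wild type of the same number, the log2 ratio was 0.26 in MUT_S_265_5 and 4.94 in MUT_S_268_4, and 0.40, 4.29 and 5.39 in the weak CKO libraries. The sources used here do not state what the numbers in the names stand for, and their part in the split was not tested. Relative to Col6a3, Col6a5 stood at 0.0123, 0.253 and 0.268 in strong CKO, 0.0119, 0.140 and 0.176 in weak CKO and 0.00825, 0.00517 and 0.00340 in wild type lungs.

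Col6a6 had 0.639, 1.121 and 1.24 RPKM in strong CKO, 0.462, 0.734 and 1.27 in weak CKO and 0.461, 0.905 and 0.556 in wild type lungs, with overlapping groups and no call (0.64 ± 0.41, adjusted p = 0.284, in strong CKO and 0.36 ± 0.41, adjusted p = 0.616, in weak CKO lungs). The 3 genes lie in one direction on chromosome 9, Col6a6, Col6a5 and Col6a4, with gaps of 27.9 and 28.8 kb, so Col6a4, with the largest fall among the tested members, and Col6a5, with the largest standard error, are adjacent. The start windows of Col6a4 (chr9:106096642-106096941, minus strand) and Col6a5 (chr9:105960594-105960893, minus strand) are shown for that contrast, from RefSeq on GRCm38.p6 with every CG in capitals.
Col6a4: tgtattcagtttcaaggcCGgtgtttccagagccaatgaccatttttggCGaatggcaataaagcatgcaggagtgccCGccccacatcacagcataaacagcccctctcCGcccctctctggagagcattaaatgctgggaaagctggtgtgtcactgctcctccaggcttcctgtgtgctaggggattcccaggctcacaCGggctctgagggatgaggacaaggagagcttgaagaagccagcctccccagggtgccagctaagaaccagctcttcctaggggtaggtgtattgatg
Col6a5: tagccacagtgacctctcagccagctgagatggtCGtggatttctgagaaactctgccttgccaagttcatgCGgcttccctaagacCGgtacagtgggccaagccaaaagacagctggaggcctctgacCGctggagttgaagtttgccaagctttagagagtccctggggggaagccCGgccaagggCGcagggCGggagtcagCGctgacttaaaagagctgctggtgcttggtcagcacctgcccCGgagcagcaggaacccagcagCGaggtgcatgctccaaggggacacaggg
They hold 5 and 10 CG.

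**Figure D5:**
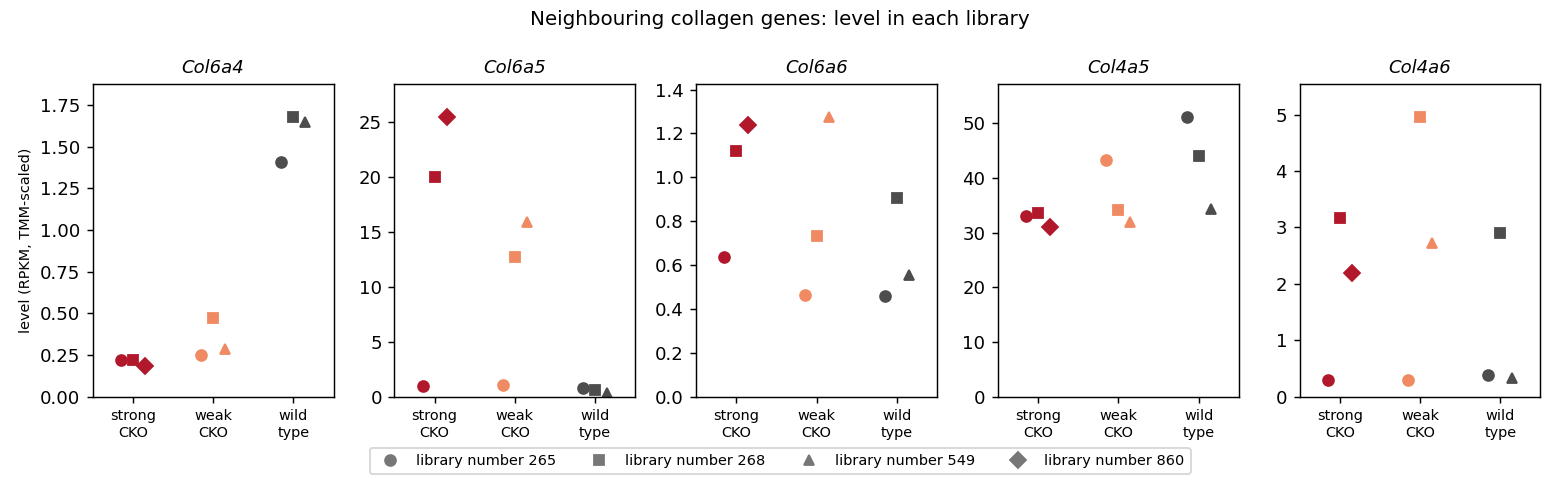
Level (RPKM, TMM-scaled, linear axes from 0) in each library of Col6a4, Col6a5 and Col6a6, which are adjacent on chromosome 9, and of Col4a5 and Col4a6, which are adjacent on the X chromosome, with point shapes for library numbers. Col6a4 is lower in all 6 CKO libraries, Col6a5 is high in 4 of the 6 CKO libraries and low in MUT_S_265_5 and MUT_W_265_2, and Col4a6 is low in those, in WT_265_1 and in WT_549_2.

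Fibril-associated collagens sit on the surface of fibrils, and of 5 tested members outside cartilage 1 was called higher and 1 lower in each CKO group (median log2 change 0.29 in strong and 0.25 in weak CKO lungs). Col16a1, a minor fibril-associated chain of connective tissue and smooth muscle, had 35.9, 29.8 and 35.99 RPKM in strong CKO, 27.7, 32.4 and 28.6 in weak CKO and 13.2, 17.1 and 14.7 in wild type lungs. All CKO libraries were far above all wild type libraries, with a log2 change of 1.17 ± 0.11 (adjusted p = 7.53e-05) in strong CKO and 0.98 ± 0.11 (adjusted p = 0.000341) in weak CKO lungs. Col14a1, which limits fibril growth and marks fibroblasts, had 37.2, 37.4 and 35.5 RPKM in strong CKO, 34.6, 38.8 and 38.6 in weak CKO and 53.7, 63.1 and 48.4 in wild type lungs. Every CKO library was below every wild type library, and its log2 change was −0.59 ± 0.09 (adjusted p = 0.00158) in strong CKO and −0.56 ± 0.09 (adjusted p = 0.00354) in weak CKO lungs. Col12a1, a related fibril-surface chain, was at 5.77 to 8.31 RPKM in strong CKO, 5.74 to 6.06 in weak CKO and 4.29 to 6.82 in wild type lungs, with overlapping groups and no call. Col20a1 was at 1.06 to 2.39 RPKM in strong CKO, 1.10 to 2.29 in weak CKO and 0.801 to 1.43 in wild type lungs. Col22a1, known from tissue junctions, was at 0.334 to 0.454 RPKM in strong CKO, 0.278 to 0.596 in weak CKO and 0.254 to 0.505 in wild type lungs. Neither was called.

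Transmembrane collagens span the cell membrane and shed their outer part. Of the 4, 3 were called lower in both CKO groups (median log2 change −0.76 in strong and −0.67 in weak CKO lungs). Col25a1, known from motor nerve targeting and amyloid plaques, had 9.80, 16.9 and 13.3 RPKM in strong CKO, 16.8, 18.6 and 23.9 in weak CKO and 56.7, 54.7 and 52.8 in wild type lungs. Wild type lungs were within a narrow band far above all CKO lungs, and the log2 change was −2.04 ± 0.19 (adjusted p = 0.00016) in strong CKO and −1.47 ± 0.19 (adjusted p = 0.00129) in weak CKO lungs. Col13a1, a chain of cell adhesion sites, was the most abundant of the class, at 35.4, 43.00 and 42.3 RPKM in strong CKO, 40.1, 41.9 and 50.6 in weak CKO and 58.3, 63.99 and 63.6 in wild type lungs. It changed by −0.62 ± 0.10 (adjusted p = 0.00173) in strong CKO and −0.49 ± 0.10 (adjusted p = 0.0109) in weak CKO lungs with no overlap; the weak CKO call was lost without MUT_W_268_3 (adjusted p = 0.0572). Col17a1, the hemidesmosome collagen of epithelial cells, had 1.011, 1.03 and 0.969 RPKM in strong CKO, 1.03, 1.20 and 0.880 in weak CKO and 2.35, 1.72 and 1.55 in wild type lungs. The CKO libraries were again all below wild type, and the log2 change was −0.90 ± 0.17 (adjusted p = 0.00423) in strong CKO and −0.85 ± 0.17 (adjusted p = 0.00972) in weak CKO lungs. In weak CKO lungs its call was lost when MUT_S_265_5, MUT_W_265_2 and WT_265_1 were left out (adjusted p = 0.0795). Col23a1 was at 17.3 to 20.3 RPKM in strong CKO, 16.7 to 18.97 in weak CKO and 17.6 to 20.9 in wild type lungs and was not called.

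Of the 4 short-chain and other genes, 3 were called higher in both groups, and the median log2 change was 1.605 in strong and 1.3 in weak CKO lungs. Type VIII chains form the hexagonal sheets of the corneal Descemet membrane and are known from vessel walls and smooth muscle. Col8a2 had 7.77, 5.92 and 6.95 RPKM in strong CKO, 6.55, 6.46 and 5.45 in weak CKO and 2.14, 2.24 and 1.55 in wild type lungs, with a log2 change of 1.8 ± 0.15 (adjusted p = 3.89e-05) in strong CKO and 1.64 ± 0.15 (adjusted p = 9.35e-05) in weak CKO lungs. Its partner Col8a1 had 1.85, 1.57 and 1.44 RPKM in strong CKO, 1.69, 1.31 and 1.17 in weak CKO and 0.717, 0.645 and 0.469 in wild type lungs, with a log2 change of 1.41 ± 0.20 (adjusted p = 0.000844) in strong CKO and 1.19 ± 0.20 (adjusted p = 0.00361) in weak CKO lungs. For both chains the lowest CKO library was well above the highest wild type library. Col26a1, a short collagen first described in mouse testis and ovary, had 6.91, 4.56 and 4.84 RPKM in strong CKO, 3.91, 3.94 and 3.06 in weak CKO and 1.42, 1.52 and 1.17 in wild type lungs. Strong CKO libraries were above the weak, and both above wild type, with log2 changes of 1.99 ± 0.19 (adjusted p = 7.81e-05) in strong CKO and 1.41 ± 0.19 (adjusted p = 0.000966) in weak CKO lungs. Col28a1, known from nerve, was at 0.579 to 1.22 RPKM in strong CKO, 0.926 to 1.14 in weak CKO and 1.15 to 1.86 in wild type lungs. Only the weak CKO group lay wholly below wild type, and the gene was not called (log2 change −0.66 ± 0.27, adjusted p = 0.101, in strong CKO and −0.60 ± 0.27, adjusted p = 0.173, in weak CKO lungs).

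The start window of Col8a2 (chr4:126286544-126286843, plus strand) and that of Col3a1 (chr1:45311288-45311587, plus strand) are shown because both genes were higher in both CKO groups and their windows differ in CG content. The sequences come from RefSeq on GRCm38.p6, with CG in capitals where present.
Col8a2: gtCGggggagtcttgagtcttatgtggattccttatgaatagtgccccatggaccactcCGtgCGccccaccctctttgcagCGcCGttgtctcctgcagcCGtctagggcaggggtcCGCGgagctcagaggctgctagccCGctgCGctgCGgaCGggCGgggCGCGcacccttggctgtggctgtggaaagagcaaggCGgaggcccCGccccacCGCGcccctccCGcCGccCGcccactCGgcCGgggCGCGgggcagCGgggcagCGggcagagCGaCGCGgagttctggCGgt
Col3a1: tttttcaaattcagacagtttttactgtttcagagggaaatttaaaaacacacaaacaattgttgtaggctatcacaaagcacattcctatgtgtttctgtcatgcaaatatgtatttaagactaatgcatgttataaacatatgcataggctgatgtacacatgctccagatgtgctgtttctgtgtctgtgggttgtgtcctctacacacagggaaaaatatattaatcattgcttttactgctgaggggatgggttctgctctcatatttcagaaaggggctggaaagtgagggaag
The Col8a2 window holds 32 CG and the Col3a1 window none. Across the family 35 of the 44 genes had a window in the RefSeq table. The median number of CG was 13 (0 to 34) in 9 genes higher in both CKO groups, 6 (5 to 29) in 5 genes lower in both and 10.5 (0 to 37) in 18 genes called in neither, so the ranges overlapped. CG, read the same on both strands, occurred in 33 of the 35 genes and in 94.6% of all 32851 windows. In these motif figures a gene counts if any of its windows holds the letters, whereas the background counts single windows. Col6a2, Col9a1 and Col18a1 have more than one window, so the units are not quite alike. On either strand GGGCGG, the box known for Sp1, occurred in 22 of the 35 genes and 35.7% of all windows, CCAAT in 13 and 37.4%, and TATAAA in 5 and 13.6%; GGGCGG includes a CG. Methylation was not measured in these samples, and a match of letters does not show a site in use.

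Between strong and weak CKO lungs no collagen gene was called by edgeR or by DESeq2, beside 0.00516% of all genes (1 gene) in edgeR. At an unadjusted p under 0.05 there were 4 of the 43, beside 5.67% of all genes tested: Col6a4, Col25a1, Col5a3 and Col26a1. Their log2 changes between strong and weak CKO lungs were −0.69 ± 0.24 (adjusted p = 0.873), −0.57 ± 0.19 (adjusted p = 0.873), 0.58 ± 0.20 (adjusted p = 0.873) and 0.58 ± 0.18 (adjusted p = 0.873). In each the strong CKO mean was further from wild type than the weak CKO mean. The libraries of the 2 groups did not overlap for 4 members, Col26a1 and Col5a3 above and Col6a1 and Col6a4 below in strong CKO (4.65% each way, against 6.7% and 6.73% of all genes). Erythroid markers, summed, were at 10360 to 19580 RPKM in strong CKO, 5783 to 6688 RPKM in weak CKO and 6007 to 11280 RPKM in wild type lungs. A missed threshold with 3 lungs a group does not show that the levels are alike.

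Serpinh1 was higher and Crtap lower in both CKO groups among the genes that fold and modify collagen. The counts for this list and the 3 that follow stand beside 14.6% of all genes called higher and 11% lower in strong CKO lungs, and 9.09% higher and 5.38% lower in weak CKO lungs. No test of the counts was made. Means in this paragraph are for strong CKO, weak CKO and wild type lungs in that order (SD, n = 3 each). Of 18 folding and modification genes, 2 were called higher and 3 lower in strong CKO lungs (median log2 change 0.154), and 1 higher and 1 lower in weak CKO lungs (median 0.135). Serpinh1, the collagen chaperone HSP47, averaged 432 ± 32.6, 411 ± 12.8 and 326 ± 28.5 RPKM and changed by 0.40 ± 0.09 (adjusted p = 0.00858) in strong CKO and 0.33 ± 0.09 (adjusted p = 0.0327) in weak CKO lungs. Crtap, part of the prolyl 3-hydroxylation complex, averaged 21.01 ± 1.84, 20.8 ± 2.93 and 29.4 ± 1.64 RPKM and changed by −0.49 ± 0.11 (adjusted p = 0.00744) in strong CKO and −0.50 ± 0.10 (adjusted p = 0.0117) in weak CKO lungs. In strong CKO lungs P3h3, a prolyl 3-hydroxylase, was higher (0.33 ± 0.07, adjusted p = 0.00934), and Colgalt2, a collagen galactosyltransferase, was lower (−0.96 ± 0.19, adjusted p = 0.00493). The prolyl 4-hydroxylase genes P4ha1, P4ha2, P4ha3 and P4hb and the lysyl hydroxylase genes Plod1, Plod2 and Plod3 were not called in either comparison.

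Of 12 tested processing and cross-linking genes, 3 were called higher and 3 lower in strong CKO, and 1 higher and 2 lower in weak CKO lungs (medians −0.269 and −0.227). Loxl2, a lysyl oxidase-like enzyme, averaged 15.7 ± 1.97, 13.9 ± 0.969 and 10.04 ± 0.511 RPKM in strong CKO, weak CKO and wild type lungs and changed by 0.64 ± 0.09 (adjusted p = 0.00103) in strong CKO and 0.47 ± 0.09 (adjusted p = 0.00961) in weak CKO lungs. Pcolce2, which enhances removal of the procollagen C-propeptide, averaged 2.28 ± 1.25, 3.96 ± 0.814 and 9.99 ± 0.704 RPKM and fell, with −2.13 ± 0.33 (adjusted p = 0.00268) in strong CKO and −1.34 ± 0.32 (adjusted p = 0.0283) in weak CKO lungs. Adamts3, an N-propeptide protease, also fell (−1.07 ± 0.25, adjusted p = 0.0112, in strong CKO and −0.85 ± 0.25, adjusted p = 0.0452, in weak CKO lungs). Lox, a cross-linking enzyme, was lower in strong CKO lungs (−0.31 ± 0.09, adjusted p = 0.0266). The related genes Loxl1 (0.37 ± 0.12, adjusted p = 0.0484) and Pcolce (0.23 ± 0.07, adjusted p = 0.047) were higher there. Among 10 receptor and uptake genes none was called higher, and 3 were called lower in strong and 2 in weak CKO lungs. The endocytic collagen receptor gene Mrc2 averaged 35.2 ± 0.815, 39.5 ± 3.27 and 53.6 ± 1.32 RPKM and changed by −0.61 ± 0.07 (adjusted p = 0.000238) in strong CKO and −0.44 ± 0.07 (adjusted p = 0.0024) in weak CKO lungs. The integrin gene Itga2 changed by −0.76 ± 0.15 (adjusted p = 0.0053) in strong CKO and −0.59 ± 0.15 (adjusted p = 0.029) in weak CKO lungs, and Itga1 by −0.66 ± 0.14 (adjusted p = 0.00752) in strong CKO lungs.

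Among 9 collagen-binding proteoglycans and fibril regulators, 3 were called higher and 2 lower in strong CKO, and 3 higher and none lower in weak CKO lungs (medians 0.109 and 0.083). Lum, whose product lumican spaces fibrils, had 16.3, 11.6 and 17.4 RPKM in strong CKO, 10.3, 8.91 and 10.2 in weak CKO and 1.35, 1.89 and 1.26 in wild type lungs and changed by 3.33 ± 0.19 (adjusted p = 6.02e-06) in strong CKO and 2.71 ± 0.19 (adjusted p = 2e-05) in weak CKO lungs. Dcn, which encodes decorin, had 72.7, 52.7 and 68.4 RPKM in strong CKO, 45.2, 39.7 and 43.8 in weak CKO and 16.99, 18.2 and 14.5 in wild type lungs and changed by 1.96 ± 0.13 (adjusted p = 9.41e-06) in strong CKO and 1.37 ± 0.13 (adjusted p = 0.000103) in weak CKO lungs. Aspn, which encodes asporin, had 79.9, 98.8 and 86.2 RPKM in strong CKO, 137, 106 and 88.9 in weak CKO and 39.3, 41.5 and 29.7 in wild type lungs and changed by 1.26 ± 0.17 (adjusted p = 0.00103) in strong CKO and 1.58 ± 0.17 (adjusted p = 0.000491) in weak CKO lungs. In each, all CKO libraries were above all wild type libraries. Bgn, the most abundant of the list, was not called, and Tnxb, a tenascin tied to fibril spacing, was lower in strong CKO lungs (−0.36 ± 0.11, adjusted p = 0.0383).

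Markers of other cell types are given beside 14.6% of all genes called higher and 11% lower in strong CKO lungs, and 9.09% higher and 5.38% lower in weak CKO lungs. A count of 1 of 7 is near these shares. Lung mesenchyme markers were called lower for 7 of 8 genes in strong CKO and 5 of 8 in weak CKO lungs, with summed levels of 335.5 to 435.7, 437 to 484 and 681 to 795 RPKM in strong CKO, weak CKO and wild type lungs. Endothelial markers were called lower for 8 of 8 and 3 of 8 genes, with sums of 413 to 511, 544 to 569 and 613 to 794 RPKM. Smooth muscle markers were called higher for 4 of 7 and 3 of 7 genes, with sums of 163 to 282, 154 to 199 and 92.8 to 133 RPKM. Pericyte markers went both ways, 3 higher and 3 lower of 7 in strong and 3 higher and 1 lower in weak CKO lungs (sums 83.1 to 104.1, 94.6 to 102 and 92.97 to 98.45 RPKM). Macrophage markers were called higher for 6 of 7 and 5 of 7 genes (143.7 to 210.3, 145 to 169 and 72.5 to 100.5 RPKM), Schwann cell markers for 4 of 7 and 2 of 7 (36.8 to 40.2, 38.3 to 39.8 and 27.5 to 29.7 RPKM), and striated muscle markers for 5 of 7 and 1 of 7 (159 to 294, 152 to 217 and 87.8 to 144 RPKM). Mesothelial markers were called higher for 2 of 7 and 1 of 7 genes, and their sums overlapped (458.5 to 680.3, 438.0 to 632.5 and 454 to 823 RPKM). Of 10 tested epithelial markers 2 were higher and 3 lower in strong CKO and 2 higher and 1 lower in weak CKO lungs (11060 to 12540, 12710 to 14170 and 11150 to 17090 RPKM), and no erythroid marker was called. The part of these markers in the collagen changes was not tested.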

How the data were processed

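RNA was read by single-read TruSeq sequencing of 9 whole lungs. The table held whole-number counts per gene and library deposited by the authors, not normalised, and RPKM values deposited by the authors. The deposited gene length, behind that RPKM, matched exon bases summed over all annotated transcripts for 42 of 44 collagen genes and was 1 to 7.83 times the coding transcript length. RPKM was therefore recomputed here from the counts with the GENCODE transcript of longest coding sequence. The submitters' processing notes name the GRCm38.p6 build, STAR, Trimmomatic 0.36, cutadapt 2.5, FastQC 0.11.8 and edgeR 3.28.1. The sources used here do not state the counter, strandedness or handling of multiply mapping reads, so counts of overlapping or paralogous genes are uncertain.

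Counts were filtered by filterByExpr, scaled by TMM (factors 0.938 to 1.04) and fitted in R 4.3.3 with edgeR 4.0.16, all 9 libraries in a robust quasi-likelihood fit with 1 mean per group, two-sided, with Benjamini-Hochberg adjustment over 19374 genes at 0.05. The steps were tested on simulated data. Alternatives were RLE and upper quartile factors, haemoglobin genes removed, no filter, DESeq2 1.42.0, only the groups compared, library number as a block, an erythroid covariate and each library left out.

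Members, classes, lists and tests were chosen with earlier results of these data known, and a class's count is not independent evidence. Every member was accounted for. Values per library were given for Dnmt1, members called, the 6 most abundant by deposited RPKM and chains that pair with these, and ranges for most others. Of each other list up to 4 called genes were named, and of the processing and cross-linking list Loxl1 and Pcolce as well. Trp63, Krt5, Matn1, Sftpc and Nkx2-1 were markers, and Tll2 and Ahsp were not analysed here.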

Additional observations from a re-analysis of the deposited data

How the results depend on the processing

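The counts of collagen genes called were recomputed at 18 alternative settings for each comparison. In strong CKO lungs 8 to 13 genes were called higher and 6 to 13 lower, against 11 and 8 in the fit as reported. In weak CKO lungs 6 to 12 were called higher and 5 to 7 lower, against 11 and 6. Calls over all genes, in either direction, moved too. They ranged from 2905 to 5306 in strong CKO lungs, against 4969 as reported. In weak CKO lungs they ranged from 1310 to 3926, against 2803. Between strong and weak CKO lungs the count of collagen genes was 0 at each of the 18 settings, beside 0 to 15 of all genes. The weak CKO higher count fell to 7 with only the groups compared, to 7 with the erythroid level as a covariate and to 7 without MUT_S_265_5, MUT_W_265_2 and WT_265_1, and ranged from 6 to 10 with 1 library left out. Col3a1, Col5a1, Col5a2 and Col5a3 lost their weak CKO calls at each of these 3 settings, and Col1a2 when the libraries were dropped. In strong CKO lungs Col3a1, Col5a1, Col6a3 and Col11a2 lost theirs with the erythroid covariate (adjusted p = 0.0685, 0.0653, 0.148 and 0.318). Dropping libraries leaves fewer samples in the fit. For the other falls the cause was not tested.

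For each library the deviations from its group mean were taken over all genes tested and correlated between libraries of different groups. These correlations ran from −0.087 to 0.346 for same-numbered libraries and from −0.38 to 0.19 for libraries of different number. Deviations cancel within a group, so these ranges are not independent of each other. Some same-numbered pairs thus lay above every pair of different number, and others lay within their range. Whether library number carries shared variation was not tested. In the fit as reported, library number was not treated as a pairing. With it as a replicate block, 12 collagen genes were called higher and 6 lower in weak CKO lungs, and 10 higher and 13 lower in strong CKO lungs. The genes added in the last count were Col4a2, Col4a3, Col4a4, Col4a5 and Col28a1. Among strong CKO libraries these blocked counts rest on MUT_S_265_5 and MUT_S_268_4, because the block absorbs MUT_S_860_3, the only library of its number.

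Called in both comparisons at all 18 settings were Col7a1, Col8a1, Col8a2, Col11a1, Col16a1 and Col26a1, higher, and Col6a4, Col14a1, Col24a1 and Col25a1, lower. DESeq2 called 13 higher and 12 lower in strong CKO lungs, adding Col5a2, Col6a5, Col4a1, Col4a3, Col4a4 and Col4a5, and 12 and 6 in weak CKO lungs, adding Col6a5. The change of Col6a1 in weak CKO lungs, not called, was 0.012 (adjusted p = 0.938) without WT_265_1, and ranged from −0.152 to 0.012 with 1 library left out. With the deposited gene length fibrillar genes took 41.9%, 38.1% and 31.5%, and basement membrane genes 31.4%, 34.4% and 38.0%, of the summed collagen level in strong CKO, weak CKO and wild type lungs. Depth limits Col2a1, Col10a1 and Col19a1, whose libraries held as few as 0 to 2 counts.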
